A study of Mus musculus with 31 samples.

Results

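The transcripts described here encode neurotrophic factors and their receptors in the mouse caudate putamen (CPu). The 8 genes, the ligands *Bdnf* and *Gdnf* and the receptors *Ntrk2*, *Ntrk3*, *Ngfr*, *Ret*, *Gfra1* and *Gfra2*, were chosen by name out of the 52636 genes of the table, and each was found by its Ensembl identifier. Levels are in TPM, a measure of transcript abundance that is corrected for gene length and adds up to the same total in each mouse, so that levels of different genes can be set side by side. The CPu was punched from frozen brain of 31 female mice, 8 to 11 weeks old and of the C57BL/6NTac-Brd1 line, and each mouse was sequenced on its own. *Brd1*+/- mice carry 1 targeted allele of *Brd1*, the gene of a chromatin reader protein, made with loxP sites around exons of the gene, and are compared with litter-matched WT mice. The groups were vehicle administered WT mice (saline, n = 8), vehicle administered *Brd1*+/- mice (n = 7), WT mice administered imipramine (IMN) at 10 mg/kg (n = 8) and IMN administered *Brd1*+/- mice (n = 8). IMN is a tricyclic antidepressant that blocks the reuptake of serotonin and noradrenaline. All 4 groups had been injected subcutaneously and had completed the tail suspension, open field and forced swim tests before the brain was taken. The *Brd1*+/- animals are a single heterozygous line, so 1 intact copy of the gene remained in all cells.

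Neurotrophins are secreted proteins that act on neurons through Trk receptor tyrosine kinases and through the p75 neurotrophin receptor. In the adult brain much of the BDNF protein of the striatum is made by neurons whose cell bodies lie in the cortex and is carried along their axons, while its receptor TrkB is made in the striatum itself. GDNF, made in the striatum by interneurons among others, binds a GFRα coreceptor on the cell surface, and the complex then engages the receptor tyrosine kinase RET, which is best known from the dopaminergic neurons that project to the striatum. Gene levels in a tissue punch are a mixture over its cells, and in these bulk samples fewer cells of a type and less RNA per cell cannot be told apart.

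The genotype labels and the tissue label were examined first. Under vehicle, WT mice averaged 22.5 ± 2.97 TPM of *Brd1* (SD, n = 8) against 13.4 ± 2.03 TPM for *Brd1*+/- mice (SD, n = 7), and under IMN 19.9 ± 2.67 TPM against 12.8 ± 1.04 TPM (SD, n = 8 each), with no overlap between the genotypes within either treatment. The 10 markers of striatal projection neurons, such as *Drd1* and *Adora2a*, were present in every mouse, and their mean log2(TPM + 1) was 3.20 to 8.53 in vehicle administered WT mice 1, 2, 3, 4, 5 and 7 and 8.16 to 9.16 in the other 25 mice. In the same 6 mice the mean of 10 markers of cortical excitatory neurons, such as *Slc17a7* and *Neurod6*, was 4.76 to 5.98, against 0.90 and 1.01 in vehicle administered WT mice 6 and 8 and 1.33 to 3.32 in vehicle administered *Brd1*+/- mice. In WT mouse 2 of the vehicle group the cortical markers (5.98) exceeded the striatal markers (3.20), which goes against its tissue label. Summed over the list, the cortical markers ranged from 12.5 to 2016 TPM in vehicle administered WT mice, 21.1 to 241 TPM in vehicle administered *Brd1*+/- mice, 12 to 1099 TPM in IMN administered WT mice and 16.2 to 399 TPM in IMN administered *Brd1*+/- mice. Of these markers *Emx1* was listed at 0 in 1 vehicle administered WT mouse, 2 IMN administered WT mice and 3 IMN administered *Brd1*+/- mice. All 10 were lower in vehicle administered *Brd1*+/- than WT mice, 2 of them past a nominal p of 0.01, and all 10 striatal markers were higher, 1 of them past it. Between these 2 groups 13.6% of all genes tested passed that threshold. In addition, WT vehicle mouse 7 held 26.8 TPM of 4 Y-linked genes, against at most 0.188 TPM in any other mouse, although its label reads female. The X-linked *Xist* was at 79.2 TPM in this mouse and at 81.4 to 159.3 TPM in the others.

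The 4 most abundant of the 8 genes encode receptors, and the 2 least abundant do so as well. Averaged over the 31 mice, *Ntrk2* led with 122.8 TPM, followed by *Ntrk3* (50.2 TPM), *Gfra1* (20.9 TPM), *Gfra2* (12.04 TPM), *Gdnf* (2.75 TPM), *Bdnf* (2.35 TPM), *Ngfr* (0.690 TPM) and *Ret* (0.321 TPM). The spread between mice separated *Ntrk2*, at 90.7 TPM in its lowest mouse, from every other gene of the list, and neighbours below it in this order overlapped from mouse to mouse. The lowest and highest mice differed little for *Ntrk2* (90.7 and 159.8 TPM) and widely for *Bdnf* (0 and 14.5 TPM) and *Gfra2* (0.961 and 55.3 TPM). The depth behind a value cannot be read from TPM, so no counting error is given.

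**Figure D1:**
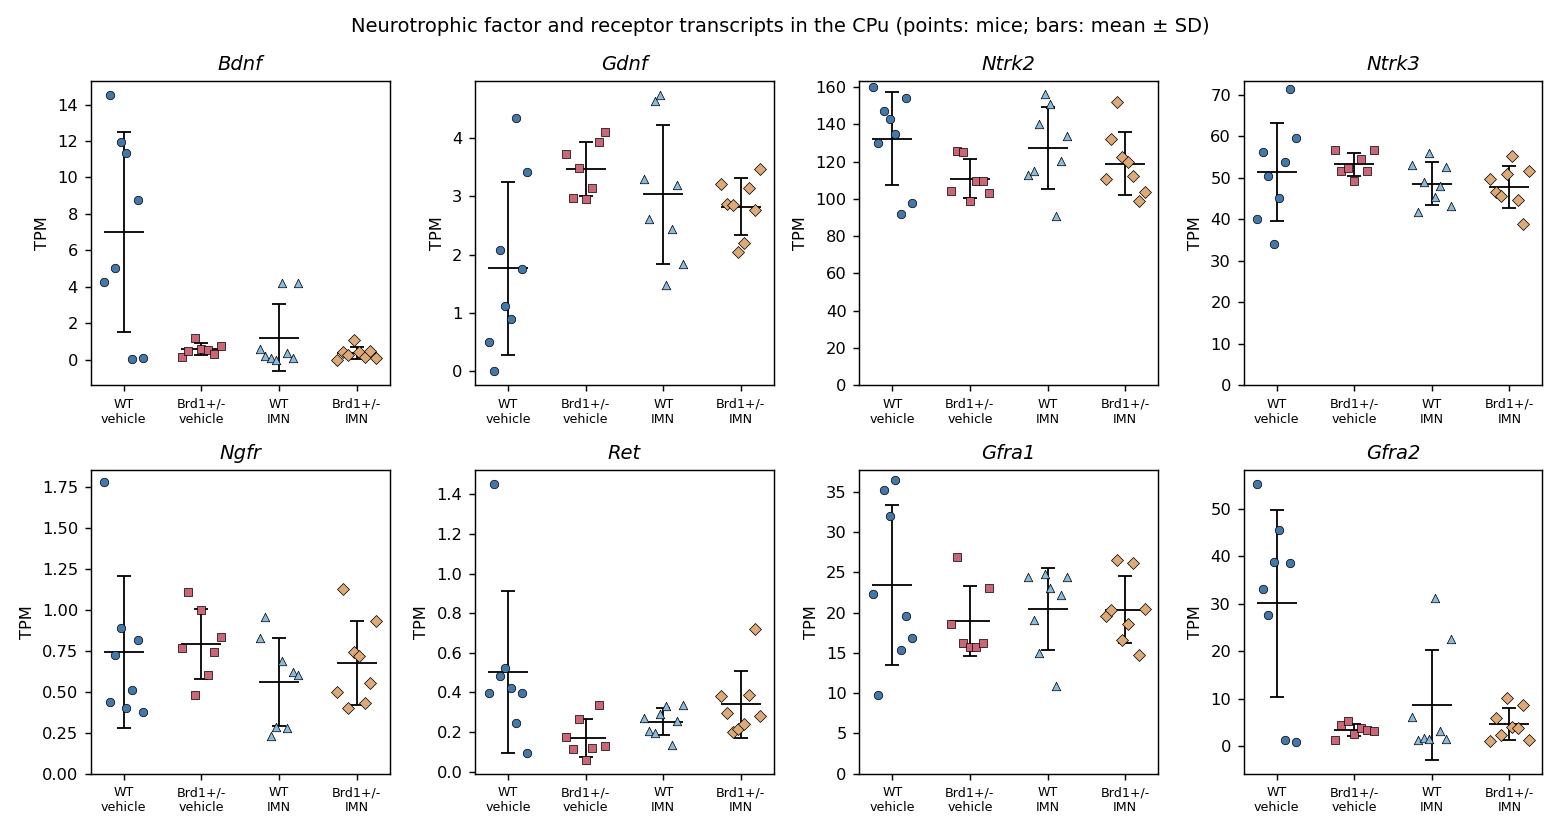
TPM of the 8 genes in the CPu of each mouse (points), by group, with the group mean and SD (bars) and 1 linear axis per gene that starts at or below 0. In vehicle administered WT mice, 6 of the 8 points for *Bdnf*, *Ret*, *Ntrk2* and *Gfra2* lie above, and 6 of the 8 for *Gdnf* below, every vehicle administered *Brd1*+/- mouse.

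*Bdnf* encodes brain-derived neurotrophic factor, the ligand of TrkB. The gene lies on chr2:109674700-109727007 (GRCm38, plus strand), where 11 annotated transcripts share a coding exon and begin at alternative first exons. Vehicle administered WT mice had a lowest level of 0.0625, a median of 6.90 and a highest of 14.5 TPM. Of these mice, 6 were between 4.28 and 14.5 TPM, and mice 6 and 8 were at 0.0625 and 0.102 TPM, lower than all 7 vehicle administered *Brd1*+/- mice. The latter ranged from 0.140 to 1.20 TPM with a median of 0.514 TPM. IMN administered WT mice ranged from a listed value of 0 to 4.21 TPM with a median of 0.284 TPM, and their 2 high values, 4.21 TPM in mouse 5 and 4.19 TPM in mouse 8, stood well above the other 6 mice. IMN administered *Brd1*+/- mice ranged from a listed 0 to 1.08 TPM with a median of 0.326 TPM. All 4 groups thus overlapped in *Bdnf*, through mice 6 and 8 of the vehicle administered WT group.

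*Gdnf* encodes glial cell line-derived neurotrophic factor and has 1 annotated transcript, on chr15:7810846-7837575 (GRCm38, plus strand). Vehicle administered WT mice had the lowest mean of the 4 groups in *Gdnf* and the highest in *Bdnf*. In vehicle administered WT mice it ranged from a listed 0 in mouse 2 to 4.34 TPM in mouse 6, with a median of 1.43 TPM. Vehicle administered *Brd1*+/- mice lay close together, from 2.96 to 4.10 TPM with a median of 3.48 TPM. The range was 1.49 to 4.74 TPM (median 2.90 TPM) in IMN administered WT mice and 2.05 to 3.47 TPM (median 2.86 TPM) in IMN administered *Brd1*+/- mice. The WT vehicle mice below every vehicle administered *Brd1*+/- mouse were mice 1, 2, 3, 4, 5 and 7, the 6 that were highest in *Bdnf*, while mice 6 (4.34 TPM) and 8 (3.42 TPM) were among the high values.

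*Bdnf* is known as a gene whose promoters respond to neuronal activity through the transcription factor CREB. RefSeq start sites on GRCm38.p6 gave 7 promoter windows for *Bdnf*, 2 for *Gdnf* and 1 each for *Ntrk2*, *Ngfr* and *Gfra1*, 12 windows in all for 5 of the 8 genes, each taken as the 250 bases before the start. For *Gdnf* RefSeq thus lists more starts than the 1 transcript of the GENCODE annotation, and which starts were used in these mice cannot be read from gene-level values. The half-site of the cAMP response element, CGTCA, was searched on both strands. It was found in 1 of the 7 *Bdnf* windows and in 1 of the 2 *Gdnf* windows, and in 17.8% of 32851 windows of the same length. No window of these genes held the full element TGACGTCA (1.55% of all windows) or the EGR site GCGNGGGCG (4.70%). The windows with a half-site are shown, with the half-site in capitals at position -35 of the *Bdnf* start (window 3 of 7, chr2:109692186-109692435, plus strand) and at position -50 of the *Gdnf* start (window 1 of 2, chr15:7809798-7810047, plus strand). Both windows lie outside annotated exons, and a match to these letters describes the sequence only.
Bdnf window 3: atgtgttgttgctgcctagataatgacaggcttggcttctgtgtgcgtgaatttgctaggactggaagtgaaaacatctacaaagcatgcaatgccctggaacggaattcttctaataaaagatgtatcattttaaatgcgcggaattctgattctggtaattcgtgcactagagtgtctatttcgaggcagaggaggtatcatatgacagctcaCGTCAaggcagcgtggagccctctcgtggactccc
Gdnf window 1: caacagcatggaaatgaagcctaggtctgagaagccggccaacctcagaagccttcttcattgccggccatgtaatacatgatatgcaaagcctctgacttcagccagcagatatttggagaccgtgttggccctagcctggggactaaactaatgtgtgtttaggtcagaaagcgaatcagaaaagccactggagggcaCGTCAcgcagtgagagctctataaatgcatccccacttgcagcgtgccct

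*Ntrk2* encodes TrkB, the receptor of BDNF, on chr13:58806569-59133970 (GRCm38, plus strand). Its 10 annotated transcripts, 7 of them coding, include the full-length kinase form and truncated forms without the kinase domain, which a gene-level value cannot separate. Vehicle administered WT mice ranged from 91.9 to 159.8 TPM (median 138.9 TPM) and vehicle administered *Brd1*+/- mice from 98.7 to 125.5 TPM (median 109.7 TPM). The same 6 WT mice exceeded all 7 *Brd1*+/- mice of the vehicle group, with mice 6 and 8 lower than any of those 7. Under IMN the ranges were 90.7 to 156.5 TPM (median 127.2 TPM) in WT and 98.6 to 152 TPM (median 115.9 TPM) in *Brd1*+/- mice.

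*Ntrk3* encodes TrkC, the receptor of neurotrophin 3, on chr7:78175959-78738012 (GRCm38, minus strand). It varied little within *Brd1*+/- mice, at 49.2 to 56.8 TPM (median 52.4 TPM) under vehicle and 38.8 to 55.2 TPM (median 48.2 TPM) under IMN. WT mice ranged from 34.1 to 71.5 TPM (median 52.1 TPM) under vehicle and from 41.6 to 56.1 TPM (median 48.5 TPM) under IMN. Here the 6 WT vehicle mice that were high in *Bdnf* did not stand together, since mice 1, 4 and 5 were below and mouse 7 above every vehicle administered *Brd1*+/- mouse. An antisense gene in an intron, *Gm9885*, reached 4.77 TPM in 1 mouse, and with the strand of the libraries not given in the sources used here, its reads cannot be told apart from unspliced *Ntrk3*.

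*Ngfr* encodes the p75 neurotrophin receptor, which binds all neurotrophins and, with sortilin, their uncleaved precursors, and lies on chr11:95568818-95587735 (GRCm38, minus strand). Its group medians lay close together, at 0.620 TPM in vehicle administered WT, 0.766 TPM in vehicle administered *Brd1*+/-, 0.614 TPM in IMN administered WT and 0.636 TPM in IMN administered *Brd1*+/- mice. The highest value, 1.78 TPM, was that of WT vehicle mouse 1, and the lowest, 0.232 TPM, that of WT IMN mouse 3. Every group overlapped every other.

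*Ret*, on chr6:118151745-118197718 (GRCm38, minus strand), encodes the signaling receptor of the GDNF family and was the lowest gene of the list. Vehicle administered WT mice ranged from 0.0964 TPM in mouse 8 to 1.46 TPM in mouse 2 (median 0.409 TPM) and vehicle administered *Brd1*+/- mice from 0.0591 to 0.335 TPM (median 0.130 TPM). Under IMN the range was 0.136 to 0.338 TPM (median 0.263 TPM) in WT and 0.198 to 0.720 TPM (median 0.288 TPM) in *Brd1*+/- mice. The order of the genotypes thus differed between the treatments, with WT mice higher under vehicle and *Brd1*+/- mice higher under IMN, and the groups overlapped in both.

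The GFRα coreceptors differed from each other in how they varied. *Gfra1*, on chr19:58235604-58455909 (GRCm38, minus strand), encodes the coreceptor that prefers GDNF and had medians of 20.9 TPM in vehicle administered WT, 16.3 TPM in vehicle administered *Brd1*+/-, 22.6 TPM in IMN administered WT and 20.0 TPM in IMN administered *Brd1*+/- mice. Its lowest and highest values, 9.74 and 36.4 TPM, were both in vehicle administered WT mice, which makes that group the widest.

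*Gfra2*, on chr14:70890120-70979838 (GRCm38, plus strand), encodes the coreceptor that prefers neurturin. In vehicle administered WT mice it ranged from 0.961 to 55.3 TPM with a median of 35.8 TPM, and in vehicle administered *Brd1*+/- mice from 1.40 to 5.37 TPM with a median of 3.55 TPM. The 6 WT mice were between 27.7 and 55.3 TPM, while mice 6 and 8 were at 1.36 and 0.961 TPM. IMN administered WT mice had a median of 2.60 TPM, with mouse 5 at 31.2 TPM and mouse 8 at 22.7 TPM far above the other 6 mice, and IMN administered *Brd1*+/- mice ranged from 1.16 to 10.2 TPM (median 3.98 TPM). As for *Bdnf*, the high WT mice were mice 1, 2, 3, 4, 5 and 7 under vehicle and mice 5 and 8 under IMN.

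These 8 mice, the highest of all 31 for *Bdnf* and also the highest for *Gfra2*, were the 8 with the highest level of the cortical excitatory neuron markers. Of the 8 mice lowest in *Gdnf*, 7 were among them, and of the 8 lowest in *Ntrk3*, 5 were. For the highest values of the other receptors the overlap was 5 of 8 mice for *Ntrk2*, 6 of 8 for *Ret*, 3 of 8 for *Gfra1*, and 2 of 8 each for *Ntrk3* and *Ngfr*.

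**Figure D2:**
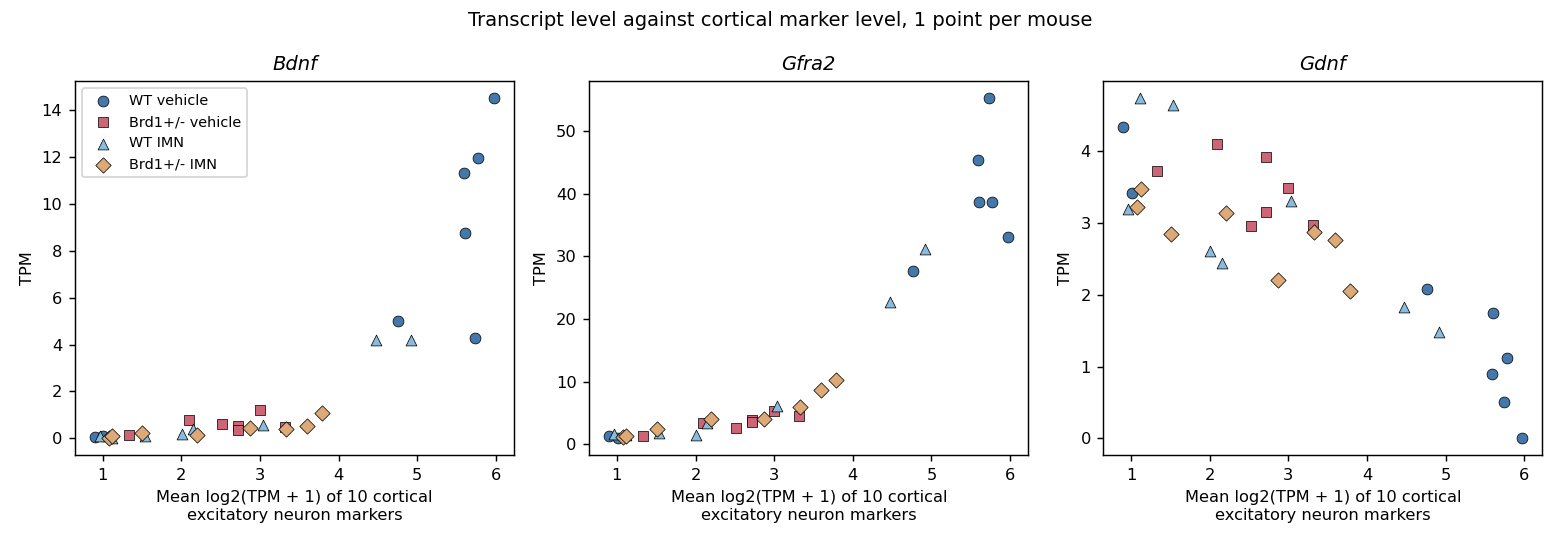
TPM of *Bdnf*, *Gfra2* and *Gdnf* (vertical axes) against the mean log2(TPM + 1) of 10 cortical excitatory neuron markers (horizontal axes), with 1 point per mouse and a colour and shape per group. The 8 mice with the highest *Bdnf* and *Gfra2* are the 8 at the right, above a marker level of 4, and *Gdnf* is lowest in the mouse with the highest marker level, 5.98.

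The first comparison asked how reduced *Brd1* bore on these transcripts without drug, *Brd1*+/- against WT mice under vehicle. At a nominal p of 0.01, 3 of the 8 genes differed, with *Bdnf* and *Gfra2* lower and *Gdnf* higher in *Brd1*+/- mice. The same threshold was passed by 13.6% of the 23200 genes tested, 342 higher and 2811 lower in *Brd1*+/- mice, and the 3 genes are 37.5% of the 8. The 8 genes had a median log2 fold change of -0.22, and all genes tested one of -0.13. No gene of the table passed a Benjamini-Hochberg FDR of 5% (limma), whereas 7168 genes had an unadjusted p under 0.05. Fold changes here and below are differences on the log2(TPM + 1) scale, which understates the change of genes at low levels.

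WT mice averaged 7.01 ± 5.48 TPM of *Bdnf* (SD, n = 8) against 0.578 ± 0.336 TPM for *Brd1*+/- mice (SD, n = 7), which gave a log2 fold change of -1.84 (SE 0.54, limma adjusted p = 0.0572, exact permutation p = 0.0121). *Gfra2* averaged 30.2 ± 19.7 TPM across WT mice (SD, n = 8) and 3.53 ± 1.28 TPM across *Brd1*+/- mice (SD, n = 7), with a log2 fold change of -2.14 (SE 0.69, limma adjusted p = 0.0660, exact permutation p = 0.0185). *Gdnf* averaged 1.76 ± 1.48 TPM across WT mice (SD, n = 8) and 3.47 ± 0.462 TPM across *Brd1*+/- mice (SD, n = 7), with a log2 fold change of 0.88 (SE 0.29, limma adjusted p = 0.0668, exact permutation p = 0.0132). For each of the 3 genes 6 of 8 WT mice lay on the far side of every *Brd1*+/- mouse, and the groups overlapped through mice 6 and 8. The two-sided exact permutation test of the single genes put none of them under 0.01.

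The receptor tyrosine kinases did not pass the threshold. *Ret* averaged 0.502 ± 0.409 TPM across WT mice (SD, n = 8) and 0.171 ± 0.0966 TPM across *Brd1*+/- mice (SD, n = 7), and its log2 fold change was -0.33 (SE 0.13, limma adjusted p = 0.105, exact permutation p = 0.0121). *Ntrk2* was at 132 ± 25.1 TPM (SD, n = 8) and 111 ± 10.6 TPM (SD, n = 7), a log2 fold change of -0.23 with a 95% confidence interval from -0.48 to 0.02 (limma adjusted p = 0.187). The intervals of *Ntrk3* (-0.18 to 0.35), *Ngfr* (-0.22 to 0.36) and *Gfra1* (-0.72 to 0.31) spanned 0.

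**Figure D3:**
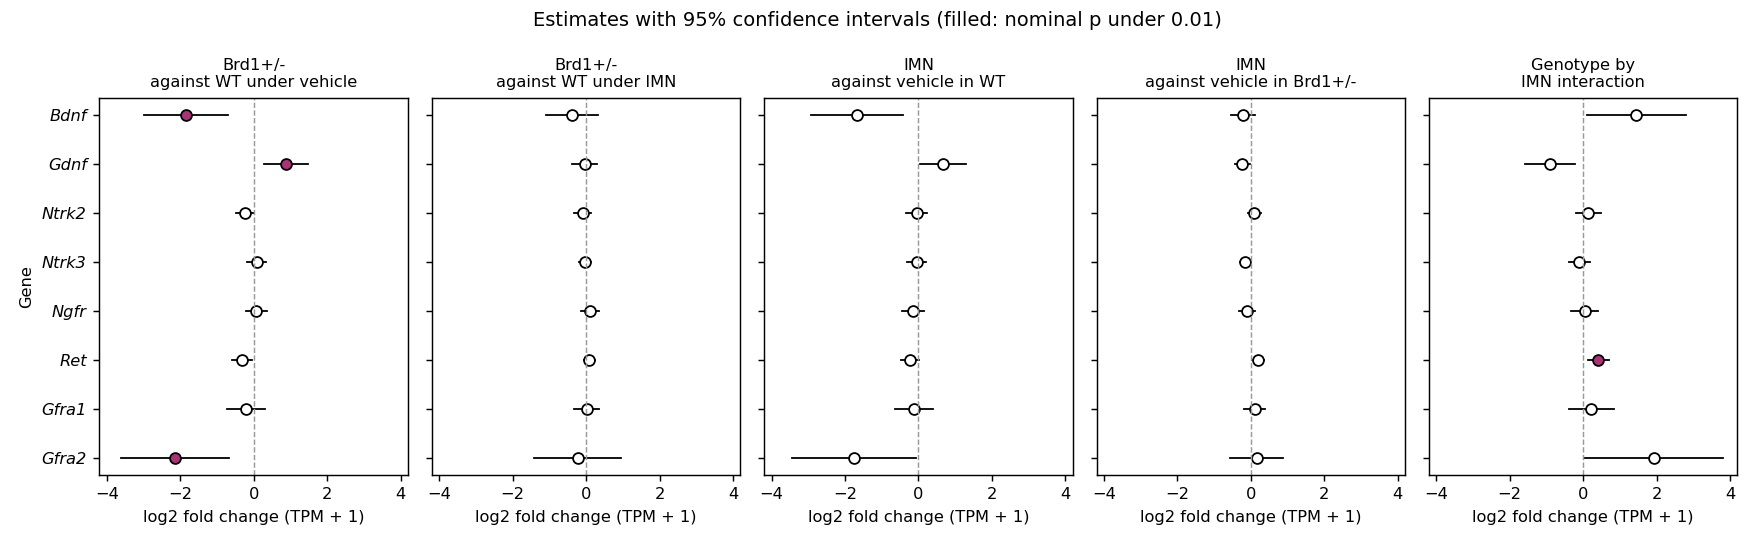
Log2 fold change of log2(TPM + 1) (horizontal axes) with its 95% confidence interval (lines) for each of the 8 genes, in 1 panel per comparison, filled where the nominal p was under 0.01. *Bdnf*, *Gdnf* and *Gfra2* are filled for *Brd1*+/- against WT under vehicle, *Ret* for the interaction, and no gene in the other 3 panels.

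These values moved with the marker levels. With the level of the cortical markers as a covariate, the log2 fold change was -0.61 for *Bdnf* (limma adjusted p = 0.491), -0.48 for *Gfra2* (limma adjusted p = 0.446) and 0.31 for *Gdnf* (limma adjusted p = 0.674). None of the 8 genes passed p of 0.01 in that fit, against 2.33% of all genes tested. With the striatal markers as a covariate the log2 fold changes were -0.998, -1.19 and 0.24. Again none of the 8 passed, against 1.48% of all genes tested. The 6 mice of this comparison with a cortical marker level of 4.76 or more were all WT mice. Differences by genotype and by tissue composition of the punch therefore cannot be told apart here. Interneuron markers differed as well. Of 3 fast-spiking interneuron markers 2 were called lower in *Brd1*+/- mice, *Pvalb* (-1.44, SE 0.49) and *Kcnc1* (-0.75, SE 0.23), and their list summed to between 39.9 and 389 TPM in WT and between 44.8 and 52.1 TPM in *Brd1*+/- mice. The mean log2(TPM + 1) of this list was 4.64 to 6.01 in the 6 WT mice with high cortical markers. It was 3.59 and 3.71 in WT mice 6 and 8 and 3.79 to 4.00 in *Brd1*+/- mice. All 4 cholinergic markers were higher in *Brd1*+/- mice, none past p of 0.01 (median log2 fold change 1.23), with sums of 0.898 to 52.0 TPM in WT, where *Chat* and *Lhx8* were each listed at 0 in 1 mouse, and 30.1 to 54.9 TPM in *Brd1*+/- mice. Their mean log2(TPM + 1) was 0.28 to 3.21 in the same 6 WT mice, 3.75 and 3.63 in WT mice 6 and 8, and 2.82 to 3.80 in *Brd1*+/- mice. The part of interneurons in the difference in *Gdnf* was not tested. Leaving out single mice changed the count of 3. It was 4 without WT vehicle mouse 6, when *Ntrk2* joined, or without mouse 8, when *Ret* joined. In these fits the called genes also passed an FDR of 5%, with limma adjusted p of 0.0106 for *Bdnf*, 0.0148 for *Gdnf*, 0.0123 for *Gfra2* and 0.0468 for *Ntrk2* without mouse 6, and of 0.00795 for *Bdnf*, 0.0197 for *Gdnf*, 0.00789 for *Gfra2* and 0.0349 for *Ret* without mouse 8. Of all genes tested, 19.9% passed p of 0.01 and 19.9% that FDR without mouse 6, and 22.4% and 23.8% without mouse 8. It was 1 without WT vehicle mouse 1, 2, 4 or 5 or without *Brd1*+/- vehicle mouse 1, 4, 5, 6 or 7, and 2 without WT vehicle mouse 3 or 7 or *Brd1*+/- vehicle mouse 2 or 3. Of all genes tested, 8.89% to 12.1% passed in the fits with a count of 1 and 9.66% to 12.4% in those with 2. *Bdnf* was called in each of these 15 fits. Where the others lost their call, the log2 fold change of *Gdnf* was 0.69 to 0.90 and that of *Gfra2* -2.17 to -1.92, with unadjusted limma p no higher than 0.0161. Without WT vehicle mouse 7, which held the Y-linked transcripts, the log2 fold changes were -1.73 for *Bdnf*, 0.90 for *Gdnf* and -1.99 for *Gfra2*.

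**Figure D4:**
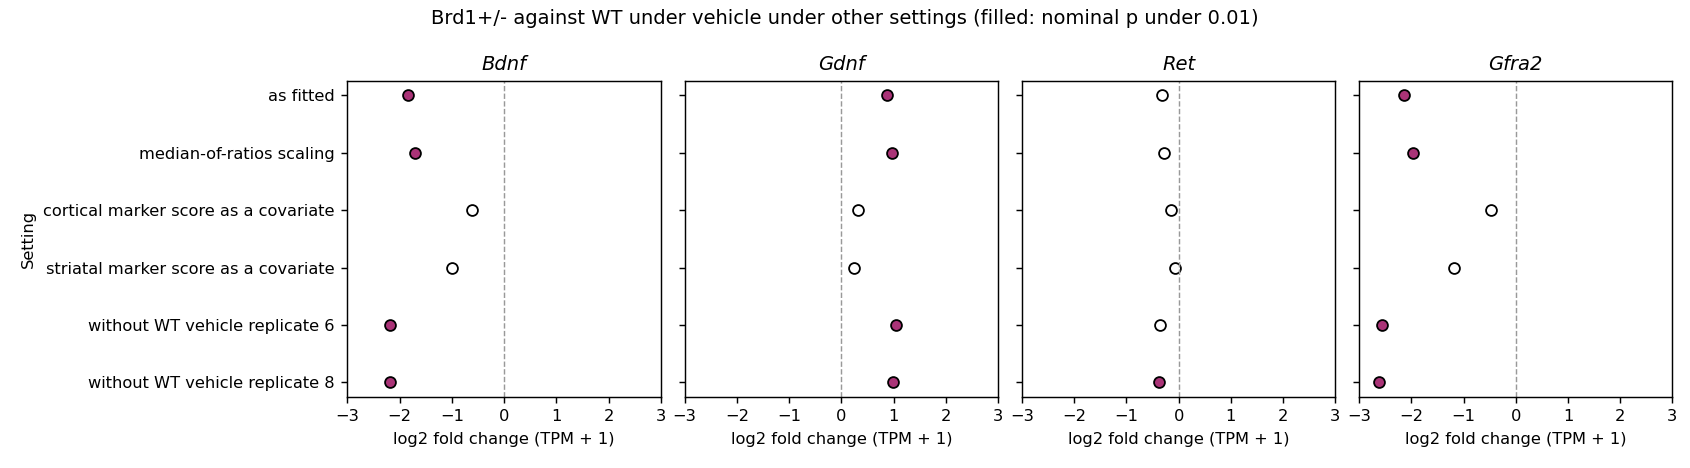
Log2 fold change of log2(TPM + 1), *Brd1*+/- against WT under vehicle (horizontal axes), for *Bdnf*, *Gdnf*, *Ret* and *Gfra2* in the fit as reported and under 5 other settings (rows), filled where the nominal p was under 0.01. With the cortical markers as a covariate *Bdnf* goes from -1.84 to -0.61 and *Gfra2* from -2.14 to -0.48, whereas leaving out mouse 6 or 8 moves both further below 0.

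The second comparison, *Brd1*+/- against WT under IMN, put none of the 8 genes past the threshold, against a background of 0.703% of 23339 genes, and 0 also by the exact permutation test, with no gene of the 8 at an unadjusted p under 0.05. Means were 1.22 ± 1.85 TPM (SD, n = 8 WT) and 0.364 ± 0.342 TPM (SD, n = 8 *Brd1*+/-) for *Bdnf*, where the log2 fold change of -0.39 had a 95% confidence interval from -1.10 to 0.32. *Gdnf* was at 3.03 ± 1.19 TPM and 2.82 ± 0.486 TPM (SD, n = 8 each), with an interval of the log2 fold change from -0.37 to 0.31. For *Gfra2*, at 8.73 ± 11.6 TPM and 4.70 ± 3.33 TPM (SD, n = 8 each), the interval ran from -1.41 to 0.95, and the sign of its fold change of -0.23 turned to 0.13 without WT IMN mouse 5 and to 0.07 without WT IMN mouse 8. For the Trk receptors the intervals were narrower, from -0.32 to 0.14 for *Ntrk2* and from -0.18 to 0.14 for *Ntrk3*. In this comparison the cortical marker level averaged 2.53 ± 1.49 for WT and 2.44 ± 1.11 for *Brd1*+/- mice (SD, n = 8 each).

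The third comparison, IMN against vehicle in WT mice, uses the same vehicle administered WT mice as the first, so both contain their spread. None of the 8 genes passed p of 0.01, against 6.95% of 23579 genes, while 3 had an unadjusted p under 0.05, as had 23.1% of all genes tested, and none passed 0.01 by the exact permutation test. *Bdnf* was lower under IMN by a log2 fold change of -1.67 (SE 0.60, limma adjusted p = 0.148, exact permutation p = 0.0261), *Gfra2* by -1.76 (SE 0.80, limma adjusted p = 0.202, exact permutation p = 0.0751) and *Gdnf* was higher by 0.68 (SE 0.30, limma adjusted p = 0.191, exact permutation p = 0.0530). *Ret* went from 0.502 to a mean of 0.253 ± 0.0702 TPM (SD, n = 8), a log2 fold change of -0.23 (limma adjusted p = 0.257). Without WT vehicle mouse 6 the count was 3, *Bdnf*, *Gdnf* and *Gfra2*, without WT vehicle mouse 8 it was 2, *Bdnf* and *Gfra2*, and without WT IMN mouse 5 or 8 it was 1, *Bdnf*. The share of all genes past p of 0.01 was 13.6%, 15.3%, 10.3% and 7.81% in these fits, in the same order. *Bdnf* had log2 fold changes between -2.01 and -1.89 in those 4 fits. It passed an FDR of 5% without WT vehicle mouse 6 (limma adjusted p = 0.0480) and without WT vehicle mouse 8 (limma adjusted p = 0.0410), as did 5.03% and 10.5% of all genes tested. All 10 cortical markers were lower under IMN in WT mice, 1 of them past p of 0.01, and all 10 striatal markers were higher, none past it. All 3 fast-spiking interneuron markers were lower, 2 of them past it, and all 4 cholinergic markers higher, none past it. All 4 erythrocyte markers were lower, 2 of them past it. With the cortical markers as a covariate the log2 fold changes were -0.40 for *Bdnf* (limma adjusted p = 0.746), -0.0025 for *Gfra2* (limma adjusted p = 0.998) and 0.13 for *Gdnf* (limma adjusted p = 0.916), and with the striatal markers -0.84, -0.79 and 0.093.

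The fourth comparison, IMN against vehicle in *Brd1*+/- mice, called none of the 8 genes, against 1.83% of 23020 genes. Of the 8, 3 had an unadjusted p under 0.05 in limma, as had 7.09% of all genes tested, and none was under 0.01 by the exact permutation test. *Gdnf* was at 3.47 TPM under vehicle and 2.82 TPM under IMN, a log2 fold change of -0.23 (SE 0.10, limma adjusted p = 0.665, exact permutation p = 0.0218). *Ntrk3* was at 53.2 and 47.9 TPM, a log2 fold change of -0.16 (SE 0.07, limma adjusted p = 0.670, exact permutation p = 0.0247), and *Ret* at 0.171 and 0.339 TPM, a log2 fold change of 0.19 (SE 0.08, limma adjusted p = 0.654, exact permutation p = 0.0183). For *Bdnf* and *Gfra2* the fold changes were -0.22 and 0.16, with 95% confidence intervals from -0.54 to 0.11 and from -0.56 to 0.88. Of the cortical markers, 4 of 10 were higher and 6 of 10 lower under IMN in these mice, none past the threshold, while all 10 striatal markers were lower, 1 of them past it, and all 6 oligodendrocyte markers higher, none past it. With the striatal markers as a covariate the log2 fold changes were -0.18 for *Gdnf*, -0.083 for *Ntrk3* and 0.20 for *Ret*, and with the cortical markers -0.24, -0.16 and 0.19.

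The last comparison asked whether the effect of IMN differed between the genotypes. The interaction had a nominal p under 0.01 for *Ret* only, 1 of the 8 genes, against 3.74% of the 25394 genes tested over all 31 mice, and no gene of the table passed an FDR of 5% (limma), with 4119 genes at an unadjusted p under 0.05. *Ret* was lower under IMN in WT mice and higher under IMN in *Brd1*+/- mice, and the difference between these effects was 0.41 on the log2 scale (SE 0.15, limma adjusted p = 0.261). With median-of-ratios scaling or quantile normalization *Ret* (0.38 and 0.37) was not called and *Gdnf* (-0.97 and -0.999) was. The estimates for *Bdnf* (1.45, SE 0.66, limma adjusted p = 0.284), *Gfra2* (1.92, SE 0.93, limma adjusted p = 0.305) and *Gdnf* (-0.91, SE 0.33, limma adjusted p = 0.261) missed the threshold. The vehicle administered WT mice enter this estimate as well. With the cortical markers as a covariate *Ret* was at 0.29 and none of the 8 genes passed, against 1.04% of all genes tested. The call of *Ret* was lost without any 1 of WT vehicle mice 3 or 4, *Brd1*+/- vehicle mice 1, 2, 4, 5 or 7, WT IMN mice 2, 3 or 6, or *Brd1*+/- IMN mice 1, 6 or 7, where its estimate stayed between 0.36 and 0.42. *Gdnf* was called instead without WT vehicle mouse 3, and the count rose to 4 without WT vehicle mouse 8, to 3 without WT vehicle mouse 6 and to 2 without WT IMN mouse 5 or 8, when 10.2%, 9.28%, 6.62% and 4.98% of all genes passed.

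Other ligands and receptors of both families were examined by level. *Ntf3* and *Ntf5*, the genes of neurotrophins 3 and 4/5, averaged 0.207 TPM or less in every group. Among GDNF family ligands, *Nrtn* (neurturin) averaged 3.36 to 4.76 TPM over the groups, and *Artn* and *Pspn* (artemin and persephin) 0.367 TPM or less. The unrelated neurotrophic factor genes *Manf* and *Cdnf* averaged 41.5 to 56.6 TPM and 0.703 to 0.906 TPM.

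The remaining GFRα genes lay at the extremes, with *Gfra4* at 37.2 to 43.4 TPM over the group means and *Gfra3* and *Gfral* listed at 0 in every mouse. *Ncam1*, an alternative GDNF receptor, averaged 62.1 to 70.1 TPM and *Sort1*, the sortilin that partners p75, 122.7 to 151.3 TPM. Group means of the related sorting receptors were 19.3 to 24.5 TPM for *Sorcs1*, 28.9 to 46.6 TPM for *Sorcs2* and 6.39 to 13.1 TPM for *Sorcs3*. *Nradd*, a p75 homologue, averaged 0.857 to 1.32 TPM. *Lingo1* and *Rtn4r*, which form the Nogo receptor complex with p75, averaged 172.4 ± 88.1 and 29.2 ± 24.3 TPM for WT mice under vehicle (SD, n = 8) and 55.7 ± 8.01 and 0.465 ± 1.23 TPM for *Brd1*+/- mice under vehicle (SD, n = 7), where *Rtn4r* was listed at 0 in 6 of 7 mice. *Rtn4r* was also listed at 0 in WT vehicle mice 6 and 8 and in 6 of 8 mice of each IMN group, and was at 19.5 to 75.7 TPM in the other 6 WT vehicle mice and at 20.2 TPM in WT IMN mouse 5. *Lingo1* was at 45.6 and 42.3 TPM in WT vehicle mice 6 and 8 and at 158.3 to 292.8 TPM in the other 6.

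Beyond these, a list of 102 genes of neurotrophin and GDNF signaling covered ligands, receptors, precursor proteases, adaptors, the Ras-ERK, PI3K-AKT and PLC-gamma arms and BDNF-induced transcripts. Under vehicle 94 of them were tested, and 1 was higher and 15 were lower in *Brd1*+/- mice at p of 0.01, 17.0% beside the background of 13.6%. The median log2 fold change of the list was -0.16, beside -0.13 for all genes. The higher one was *Sorcs2* (0.84, SE 0.27, limma adjusted p = 0.0659). Among the lower genes with the smallest p were *Dok5*, an adaptor of Trk and RET (-0.91, SE 0.20), and *Rtn4r* (-3.60, SE 0.88), each with a limma adjusted p of 0.0556. By arm, 2 of 17 Ras-ERK genes, 2 of 11 PI3K-AKT genes, 2 of 5 PLC-gamma genes and 3 of 24 adaptors were lower, and none of the 5 ligands tested passed.

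Under IMN the genotypes differed in 1 of 92 genes tested of the list, 1.09% beside 0.703%, which was the immediate early gene *Arc*, lower in *Brd1*+/- mice (-0.65, SE 0.15, limma adjusted p = 0.817). The effect of IMN in WT mice passed for 7 of 95 genes, 7.37% beside 6.95%. *Kidins220*, a scaffold of Trk receptors (0.48, SE 0.12), and *Pcsk7*, a proprotein convertase gene (0.45, SE 0.12), were higher, and *Arc* (-1.13, SE 0.20), *Nptx2* (-0.79, SE 0.19) and *Rtn4r* (-3.11, SE 0.95) led the 5 lower ones. In *Brd1*+/- mice 8 of 92 genes passed, 8.70% beside 1.83%, with the precursor protease genes *Pcsk6* (0.51, SE 0.16) and *Plat* (0.30, SE 0.10) higher and *Egr1* (-0.60, SE 0.09), *Arc* (-1.12, SE 0.19) and *Dusp6* (-0.45, SE 0.10) leading the 6 lower ones. Of the 8 BDNF-induced transcripts, most of which are general activity-regulated genes, 3 were lower under IMN in WT mice and 4 in *Brd1*+/- mice, among them *Arc* in both. *Arc* went from 205.6 ± 74.8 TPM (SD, n = 8) to 88.9 ± 16.4 TPM (SD, n = 8) in WT and from 126.2 ± 40.2 TPM (SD, n = 7) to 56.9 ± 14.2 TPM (SD, n = 8) in *Brd1*+/- mice (limma adjusted p = 0.119 and 0.0967). *Bdnf* itself was not called in either of these comparisons. The interaction passed for 2 of 96 genes, *Rtn4r* (3.33, SE 1.11) and *Hras* (-0.52, SE 0.19), 2.08% beside 3.74%.

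Genes that varied most like each of the 8 were found from the deviations of log2(TPM + 1) from the group means over the 31 mice, among 17390 other genes (17391 for *Ngfr* and *Ret*) with a mean of at least 1 TPM. These values describe genes measured in the same punches, which differed in cortical and striatal marker levels, and carry no test. *Bdnf* varied most like *Cbln2* (r = 0.97), *Agbl4* (r = 0.97) and *Nwd2* (r = 0.97), and *Gfra2* like *Gm11549* (r = 0.98), *Ccn3* (r = 0.98) and *C1ql3* (r = 0.98). The closest to *Gdnf* were *Gm44593* (r = 0.93), *Gm38413* (r = 0.93) and *Foxo1* (r = 0.93). *Ntrk2* was closest to *Gm4798* (r = 0.93), *Etv5* (r = 0.89) and *Pom121* (r = 0.86), and *Ret* to *Dusp5* (r = 0.88), *Slc25a4* (r = 0.85) and *Kcns1* (r = 0.82). For *Gfra1* they were *Wwc2* (r = 0.79), *Col25a1* (r = 0.78) and *Wnk3* (r = 0.76), for *Ngfr* *Cdk5rap2* (r = 0.75), *Itpr2* (r = 0.75) and *Abtb2* (r = 0.70), and for *Ntrk3* *Gm20063* (r = 0.71), *Gm4189* (r = 0.70) and *Gm15382* (r = 0.68).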

How the data were processed

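The authors sequenced RNA from 1 CPu punch per mouse (31 females) on BGISEQ-500 machines with single-end reads of 50 bp, aligned to GRCm38 (Ensembl release 90) with HISAT2 2.1.0 and quantified with StringTie 1.3.4. The authors deposited TPM per gene and mouse, scaled to gene length and to a sum of 999787 to 999918 per mouse, for 52636 genes. Depth and counting error cannot be derived from TPM. Groups were taken from the sample labels, and the labels do not pair mice across groups. Symbols and coordinates came from GENCODE M21 (GRCm38), where 52403 identifiers were found, and promoter sequences from RefSeq on GRCm38.p6.

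Each pair of groups was fitted alone, and the interaction over all mice, using log2(TPM + 1) and limma 3.58.1 (R 4.3.3). A gene was tested if at least 7 of the fitted mice exceeded 0.1 TPM, and variances were moderated with a mean-variance trend. All p-values are two-sided, with a nominal p of 0.01 and a Benjamini-Hochberg FDR of 5% as thresholds. The fit was tested on simulated data. Single genes were also compared by exact permutation tests. The authors' own test, edgeR, needs counts and was not run. The 8 genes and the gene and marker lists were chosen with earlier results of these data known. Besides the 8 genes, the text names up to 3 genes of the signaling list per direction with the smallest p under 0.01, the listed ligands and receptors by level, the 3 genes most like each of the 8, *Brd1* as a check of the labels, and marker genes. Some genes that this rule selects are not reported here. Alternatives were another pseudocount, other filters on low TPM, median-of-ratios scaling, quantile normalization, sample quality weights, moderation without the trend, a replicate block, all groups in one fit, marker levels as covariates, and each mouse left out in turn.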

Additional observations from a re-analysis of the deposited data

Results flagged for a closer look

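Of the 32 sets of values formed by the 8 genes in the 4 groups, 3 had a mouse that stood apart from the rest of its group by Dixon's criterion, which chance alone meets in about 1 in 20 sets. *Ngfr* was at 1.78 TPM in WT vehicle mouse 1, a gap to the next mouse of 0.549 of the group's range on the log2(TPM + 1) scale, which holds for the other gaps here too. *Ret* was at 1.46 TPM in WT vehicle mouse 2 (0.590 of the range), the mouse whose cortical markers exceeded its striatal markers, and without it the interaction estimate of *Ret* was 0.31. *Ret* was also at 0.720 TPM in *Brd1*+/- IMN mouse 7 (0.6 of the range), and without that mouse the interaction was 0.36. The effect of IMN on *Ret* differed between the genotypes by 0.414 on the log2 scale at a nominal p under 0.01 (limma adjusted p = 0.261).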

How the results depend on the processing

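*Bdnf*, *Gdnf* and *Gfra2* under vehicle and *Ret* in the interaction kept their direction under every alternative run, and of 45 such values under settings other than leaving out a mouse, 29 stayed past p of 0.01 and 16 did not. The count of 3 genes under vehicle was 0 with a pseudocount of 0.1 (12.9% of all genes), with the cortical (2.33%) or with the striatal markers (1.48%) as a covariate, and by the exact permutation test. It was 5 with sample quality weights (26.5% of all genes), 4 with all 4 groups in one fit, when *Ret* joined (19.7%), and 1 to 4 with 1 mouse left out. These 3 genes also passed an FDR of 5% with sample quality weights, with a replicate block and with all 4 groups in one fit, where the limma adjusted p of *Bdnf* was 0.00119, 0.0242 and 0.0109, and *Bdnf* alone among genes with a mean of at least 1 TPM (0.0473). Of all genes tested, 29.5%, 15.7%, 19.5% and 10.5% passed that FDR in these 4 fits. The count of 0 for IMN in WT mice was 3 with sample quality weights, 2 with all 4 groups in one fit, when 4798 of 23579 and 3424 of 25394 genes passed, and 0 to 3 with 1 mouse left out. The count of 1 for the interaction was 0 among genes with a mean of at least 1 TPM (4.53% of all genes tested), where *Ret* was not tested. It was also 0 with the cortical (1.04%) or with the striatal markers (0.52%) as a covariate. The count was 4 with sample quality weights, 4 with a replicate block (13.6% and 11.1% of all genes) and 0 to 4 with 1 mouse left out. With median-of-ratios scaling (3.17%) and with quantile normalization (3.39%) the count stayed 1 but the gene was *Gdnf* and no longer *Ret*. For the other alternatives the cause of a change was not tested.

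Correlations between the deviations of mice with the same number ran from -0.158 to 0.071 in the first comparison. The widest range was -0.432 to 0.452, for IMN in WT mice. For IMN in *Brd1*+/- mice 3 of 7 pairs were over 0.1. These values cannot show whether mice of the same number shared a litter or batch, which was not tested. The replicate block leaves out mice whose number is not in every group, WT vehicle mouse 8 under vehicle and all mice numbered 8 in the interaction. It gave -2.18 for *Bdnf*, 1.00 for *Gdnf* and -2.61 for *Gfra2* under vehicle with a count of 3, where leaving out that mouse without a block gave 4. In the interaction the count of 4 with the block was also that without WT vehicle mouse 8 alone, so the block and the missing mice cannot be told apart there.

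Reversed signs were confined to genes that were not called. With the cortical covariate these were *Ntrk2* (0.0047) and *Ntrk3* (-0.016) under vehicle, *Ntrk2* (0.13) and *Gfra1* (0.045) for IMN in WT mice, and *Ntrk2* (-0.0080) and *Ngfr* (-0.074) in the interaction. With the striatal covariate they were *Ntrk2* (0.048) and *Ret* (0.0011) for IMN in WT mice and *Ntrk2* (-0.029), *Gfra1* (-0.021) and *Gfra2* (-0.22) for IMN in *Brd1*+/- mice. Median-of-ratios scaling turned *Ntrk2* (0.079), *Ntrk3* (0.073) and *Gfra1* (0.0066) for IMN in WT mice, *Ntrk3* (0.022) between genotypes under IMN, and *Ntrk2* (-0.00025) and *Ngfr* (-0.028) in the interaction. Quantile normalization turned the same ones, to 0.12, 0.10 and 0.018, to 0.021, and to -0.013 and -0.039, and sample quality weights turned *Ntrk3* for IMN in WT mice (0.0038). With 1 mouse left out, values between genotypes under IMN ran from -0.12 to 0.049 for *Gdnf*, -0.051 to 0.020 for *Ntrk3*, -0.10 to 0.073 for *Gfra1* and -0.40 to 0.13 for *Gfra2*. For IMN in WT mice they ran from -0.12 to 0.019 for *Ntrk2*, -0.13 to 0.020 for *Ntrk3* and -0.27 to 0.00054 for *Gfra1*, for IMN in *Brd1*+/- mice from -0.012 to 0.33 for *Gfra2*, and in the interaction from -0.062 to 0.088 for *Ngfr*.

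The share of called genes that were lower in *Brd1*+/- mice under vehicle was 89.2% as reported and 56.5% with median-of-ratios scaling, which moved the median of all genes from -0.13 to 0.00. For IMN in WT mice the share was 80.6% and 52.1%, for genotypes under IMN 73.2% and 56.7%, and for the interaction 20.8% and 49.7%. What depth limits cannot be assessed from TPM.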
